A study of Mus musculus with 54 samples.

Results

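The genes described here carry the insulin signal in the liver or answer to it: the receptor gene Insr, the docking protein genes Irs1 and Irs2, the kinase gene Akt2, the transcription factor gene Foxo1, the secreted binding protein genes Igfbp1 and Igfbp2, and the pseudokinase genes Trib1 and Trib3. They were taken by symbol from a liver expression table of 20162 rows (20143 symbols), and all 9 were found there and were above 0 in every mouse. The table holds 54 wild-type (WT) C57BL/6J male mice that ate a gelatin pellet every day for several months, which held di-isononyl phthalate (DINP), a plasticizer, in the exposed groups and none in the control group. There were 14 control mice, 13 at the low dose of 1.5 mg/kg bw/d (milligrams per kilogram of body weight and day), 13 at the middle dose (15 mg/kg bw/d) and 14 at the high dose (150 mg/kg bw/d). All groups, the control group included, were fed a high-fat diet from young adulthood, so each comparison is between animals on that diet and none is with lean animals. RNA came from the medial liver lobe, and the feeding state of the mice when they were killed is not given in the sources used here.

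In liver, insulin binds its receptor, which phosphorylates the insulin receptor substrates, and these recruit the lipid kinase that leads to activation of Akt. Akt phosphorylates the forkhead factor Foxo1, which then leaves the nucleus, and genes that Foxo1 drives in the fasted state, Igfbp1 and Irs2 among them, are shut down after a meal. Most of this regulation acts on proteins, which were not measured here, so the values below describe transcripts and not the activity of the pathway.

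Values come from a table named as TPM, an expression unit scaled to transcript length and library size. In each mouse they were whole multiples of 1 factor, and they are read here as TPM rounded to whole numbers and multiplied by that factor, which the sources used here do not state. They are called scaled TPM below, and read depth cannot be read from them. The factor, which is also the smallest value above 0 in that mouse, ran from 0.764 to 1.11. Insr, Irs1, Irs2, Foxo1 and Trib3 were low, between 1 and 9 whole units in every mouse, so that their values move in coarse steps. The libraries were made from the 3′ ends of transcripts, and levels are therefore compared between mice and not between genes. Annotated genes overlap Insr, Irs1, Irs2 and Foxo1 on the opposite strand, and whether strand was used in the quantification is not given in the sources used here. The hepatocyte markers Alb, Apoa1, Ttr, Trf, Cps1 and Serpina1a summed to between 25300 and 47800 scaled TPM in all mice.

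Control replicates 8 and 9 stood apart from the other 12 control mice. They had the lowest factors of all mice, 0.764 and 0.883, and both lay above the other 12 for 8.49% and below them for 7.13% of the 11431 genes tested. Both were above the other 12 for Igfbp1 and Irs2 and below them for Akt2. The next lowest factor, 0.886, belonged to replicate 7 of the middle-dose group, the mouse with the highest Igfbp1 and Trib3 and the lowest Igfbp2 of that group. Values without control replicates 8 and 9 are given for each of the 9 genes in which one of these mice lay at an end of the control range, and for other genes of the lists mainly where a call against control changed.

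Differences were tested with limma over all 11431 genes with a mean of at least 1, on the log2(value + 1) scale, which understates changes of low genes, and a gene was called at an adjusted p under 0.05. Fold changes below are on that scale, and a gene with a log2 fold change (log2FC) beyond 0.5 as well is named a differentially expressed gene (DEG). Against control, 0 of the 9 genes were called at the low dose, where 1.20% of all genes tested were called. At the middle dose, 3 of the 9 were called, Insr higher and Irs1 and Akt2 lower, where 14.2% of all genes were. At the high dose, 0 of the 9 were called, against 2.17% of all genes. With limma at an unadjusted p under 0.05 there was 1 gene at the low dose (Insr) and 2 genes at the high dose (Igfbp2 and Trib1). A Wilcoxon rank-sum test with the same adjustment called 0 genes at the low dose, 0 at the middle dose and 1, Igfbp2, at the high dose. None of the 9 was a DEG against control, while 0.367%, 3.72% and 0.840% of all genes were at the 3 rising doses.

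**Figure D1:**
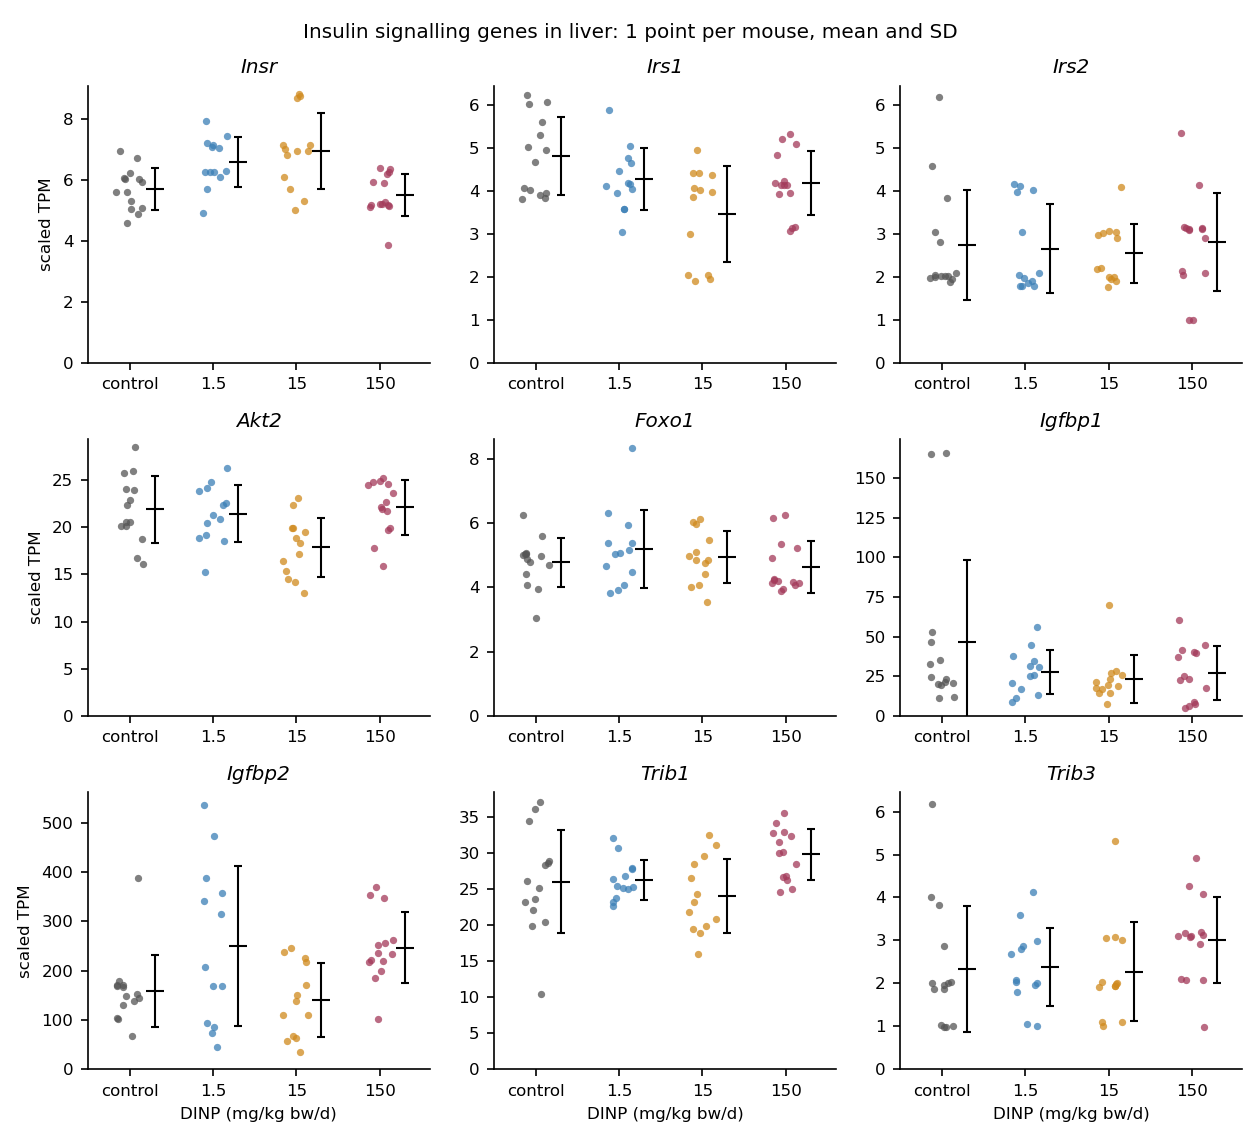
Level of each of the 9 genes (y axis, scaled TPM, from 0) in every mouse by DINP dose (x axis, mg/kg bw/d); each point is 1 mouse, and the black bar is the mean with the SD (the lower bar of control Igfbp1 is cut off at 0). Insr was highest and Irs1 and Akt2 were lowest on average at the middle dose, and 2 control mice lay at 165 and 166 for Igfbp1, far above the other 12.

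Insr encodes the insulin receptor (ENSMUSG00000005534.10, GRCm38 chr8:3122061-3279617, minus strand). Its level ran from 4.59 over a median of 5.77 to 6.95 in control mice and from 4.91 over 6.30 to 7.93 at the low dose. It ran from 5.03 over 6.96 to 8.84 at the middle dose and from 3.88 over 5.25 to 6.41 at the high dose. The ranges overlapped, but 10 of 13 mice at the middle dose and 11 of 13 at the low dose were above the control median, against 6 of 14 at the high dose. Against control, Insr was upregulated at the middle dose with a log2FC of 0.24 (SE 0.0718, adjusted p = 0.0198). The log2FC was 0.17 at the low dose (adjusted p = 0.272) and -0.04 at the high dose (adjusted p = 0.84). Between doses, Insr was higher at the middle than at the high dose by a log2FC of 0.28 (adjusted p = 0.0035). The means stood in the order the high dose, control, the low and middle doses (5.52, 5.72, 6.59 and 6.96 scaled TPM), and no neighbours in that order passed the test. In whole units, 9 of 14 control mice had 6, and 9 of 13 mice at the middle dose had 7 or more. The call at the middle dose against control was lost without control replicates 8 and 9 (log2FC 0.21, adjusted p = 0.0598), in a fit of these groups alone (adjusted p = 0.0596) and in the Wilcoxon test (adjusted p = 0.0621).

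Irs1 and Irs2 encode the docking proteins that carry the signal from the receptor to the lipid kinase. Irs1 (ENSMUSG00000055980.2, GRCm38 chr1:82233101-82291416, minus strand) ran from 3.82 over a median of 4.82 to 6.23 in control mice and from 3.05 over 4.17 to 5.89 at the low dose. It ran from 1.90 over 3.98 to 4.97 at the middle dose and from 3.08 over 4.15 to 5.34 at the high dose. At the middle dose, 12 of 13 mice had less than the control median and 4 had 2 whole units, a number that no mouse of another group had. Irs1 was downregulated there with a log2FC of -0.41 (SE 0.104, adjusted p = 0.00434). Its log2FC was -0.14 at the low dose (adjusted p = 0.628) and -0.17 at the high dose (adjusted p = 0.488). The mean was thus lowest at the middle dose (3.47 ± 1.12, SD, n = 13) and highest in control mice (4.82 ± 0.907, n = 14), with both other doses between. The differences of the middle dose from the low and high doses did not pass (log2FC of the low against the middle dose 0.27, adjusted p = 0.0564; of the middle against the high dose -0.25, adjusted p = 0.0831). Without control replicates 8 and 9 the log2FC of Irs1 at the middle dose against control was -0.42 (adjusted p = 0.00641), whereas the Wilcoxon test gave an adjusted p of 0.132.

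Irs2 (ENSMUSG00000038894.7, GRCm38 chr8:10984681-11008458, minus strand) ran from 1.87 over a median of 2.03 to 6.18 in control mice and from 1.79 over 2.03 to 4.17 at the low dose. It ran from 1.77 over 2.21 to 4.08 at the middle dose and from 0.984 over 3.09 to 5.34 at the high dose. The highest control values, 4.59 and 6.18, were those of replicates 8 and 9, and 9 of the 14 control mice had 2 whole units. Its group means lay between 2.55 and 2.81 scaled TPM, and no comparison passed the test. The log2FC against control was -0.02, -0.04 and 0.02 at the 3 rising doses, with a 95% confidence interval of -0.27 to 0.32 at the high dose. Without control replicates 8 and 9, the first 2 of these values turned to 0.12 and 0.10.

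Akt2 encodes the Akt isoform that carries most of the insulin signal in hepatocytes (ENSMUSG00000004056.15, GRCm38 chr7:27591552-27640826, plus strand). It ran from 16.1 over a median of 21.4 to 28.6 in control mice and from 15.2 over 21.2 to 26.2 at the low dose. It ran from 13.0 over 18.4 to 23.1 at the middle dose and from 15.9 over 22.4 to 25.2 at the high dose. The mice at the middle dose lay lowest, with 11 of 13 below the control median and 12 of 13 below the median at the high dose, although the ranges overlapped. Akt2 was downregulated at the middle dose against control, with a log2FC of -0.28 (SE 0.0846, adjusted p = 0.0197). It was also lower at the middle dose than at the high dose (log2FC -0.30, adjusted p = 0.00884) and higher at the low than at the middle dose (log2FC 0.25, adjusted p = 0.0299). The call for the low against the middle dose was lost in a fit of these groups alone (adjusted p = 0.0573), in the Wilcoxon test (adjusted p = 0.0872) and in 5 of 54 fits with a single mouse removed. Its log2FC against control was -0.03 at the low dose (adjusted p = 0.942) and 0.02 at the high dose (adjusted p = 0.953). Control replicates 8 and 9, at 16.1 and 16.8, were the lowest of the control group, and with both removed the log2FC at the middle dose was -0.34 (adjusted p = 0.00445). The call against control was lost in a fit of these groups alone (adjusted p = 0.0547) and in the Wilcoxon test (adjusted p = 0.0722).

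Foxo1 encodes the forkhead factor that insulin sends out of the nucleus (ENSMUSG00000044167.6, GRCm38 chr3:52268336-52353221, plus strand; the annotated gene Gm38034 overlaps it on the same strand). Its median was 4.92 in control mice and 5.06, 4.86 and 4.20 at the low, middle and high dose, and the lowest and highest mouse of all groups had 3.06 and 8.34 scaled TPM. The mice of the 4 groups lay in largely the same range, apart from the 1 mouse at 8.34 in the low-dose group. The log2FC against control was 0.09, 0.04 and -0.04 at the 3 rising doses (adjusted p = 0.727, 0.81 and 0.902), and the 3 comparisons between doses did not pass either. Control replicate 8 had the lowest control value, and without replicates 8 and 9 these log2FC values were 0.04, -0.0077 and -0.08. At the middle dose the 95% confidence interval ran from -0.13 to 0.21.

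**Figure D2:**
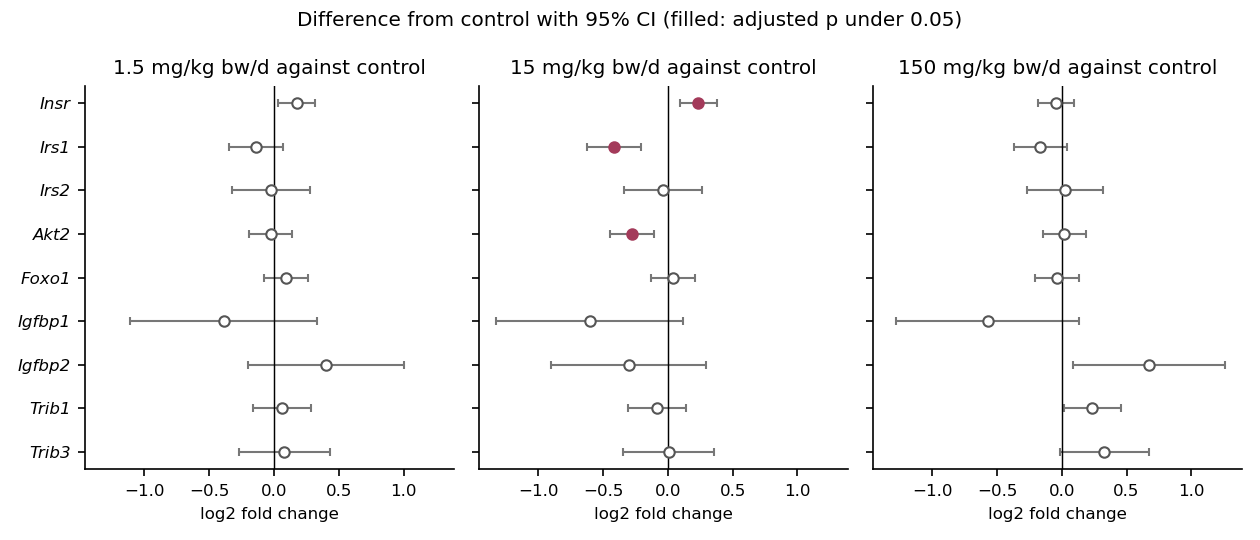
Log2 fold change against control (x axis, log2(value + 1) scale) of the 9 genes (y axis) at each DINP dose, with 95% confidence intervals from limma; filled points have an adjusted p under 0.05. Insr (0.24), Irs1 (-0.41) and Akt2 (-0.28) are filled at the middle dose, and the widest intervals are those of Igfbp1 and Igfbp2.

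Igfbp1 encodes a secreted protein that binds insulin-like growth factors and whose liver transcript is among those that insulin lowers most sharply (ENSMUSG00000020429.7, GRCm38 chr11:7197782-7202546, plus strand). It ran from 11.2 over a median of 23.7 to 166 scaled TPM in control mice and from 8.58 over 25.5 to 56.3 at the low dose. It ran from 7.74 over 19.3 to 70.0 at the middle dose and from 4.94 over 24.1 to 60.6 at the high dose. Control replicates 8 and 9 had 166 and 165, and the other 12 control mice lay between 11.2 and 53.0, which is within the range of the exposed groups. The control mean of 46.5 ± 51.8 (SD, n = 14) therefore rests on these mice, while the group means at the 3 doses were 27.4 ± 13.8, 23.4 ± 15.1 and 27.0 ± 17.3. The log2FC against control was -0.39, -0.60 and -0.57 at the low, middle and high dose and did not pass the test (adjusted p = 0.725, 0.281 and 0.488). Without control replicates 8 and 9 it was 0.0029, -0.21 and -0.18. The coefficient of variation between mice was 111% in the control group and from 50.5% to 64.5% in the exposed groups.

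Igfbp1 and Irs2 are both known Foxo targets, and their levels between mice had a Pearson's r of 0.513 (the rank correlation did not pass its test), so their promoters are shown with that of Irs1, which also held a match. The windows run from 250 bases before to 50 bases after the start of transcription (RefSeq, GRCm38.p6) and were available for 7 of the 9 genes, all but Insr and Trib1. The letters GTAAACA, the core of the site that forkhead factors bind, were searched on both strands, with the form CAAAACA that forkhead sites of insulin-lowered genes hold, and with its variant CAAAATA. For Atf4, the letters TGATGCA were searched in the same way. Capitals mark the matches, where TGTTTTG is CAAAACA read from the other strand and TATTTTG is CAAAATA read in the same way.
Igfbp1 (chr11:7197537-7197836, plus strand): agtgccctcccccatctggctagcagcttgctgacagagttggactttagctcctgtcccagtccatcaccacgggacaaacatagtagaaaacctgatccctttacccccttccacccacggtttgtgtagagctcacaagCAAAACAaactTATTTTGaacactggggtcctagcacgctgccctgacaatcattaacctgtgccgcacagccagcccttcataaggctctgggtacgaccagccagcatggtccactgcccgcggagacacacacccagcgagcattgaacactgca
Irs2 (chr8:11008880-11009179, minus strand): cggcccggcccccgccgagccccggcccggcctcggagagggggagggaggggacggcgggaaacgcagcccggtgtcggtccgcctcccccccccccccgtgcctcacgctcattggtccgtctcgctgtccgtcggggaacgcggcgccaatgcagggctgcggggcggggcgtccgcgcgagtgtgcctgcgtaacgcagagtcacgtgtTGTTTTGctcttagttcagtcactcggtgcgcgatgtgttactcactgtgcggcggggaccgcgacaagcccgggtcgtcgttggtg
Irs1 (chr1:82291390-82291689, minus strand): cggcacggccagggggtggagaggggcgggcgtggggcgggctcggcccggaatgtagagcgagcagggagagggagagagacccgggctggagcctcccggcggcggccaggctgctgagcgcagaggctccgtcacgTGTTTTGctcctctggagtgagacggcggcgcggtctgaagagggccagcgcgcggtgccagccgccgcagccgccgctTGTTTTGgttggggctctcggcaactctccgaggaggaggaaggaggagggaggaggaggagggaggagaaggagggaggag

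In the Igfbp1 window, CAAAACA began 108 bases and TATTTTG 97 bases before the start, 4 bases apart from end to start. In the Irs2 window, TGTTTTG began 37 bases before the start, and in the Irs1 window it began 111 and 32 bases before the start. The Irs2 window lies wholly outside the GENCODE span given above for Irs2, so its RefSeq start differs from the GENCODE start. CAAAACA was found in 6.28%, CAAAATA in 4.36%, GTAAACA in 3.65% and TGATGCA in 3.15% of the 32851 promoter windows of the mouse table. The windows of Igfbp2, Foxo1 and Trib3 held none of the 4, and 1 of the 4 windows of Akt2 held TGATGCA 23 bases after the start. A match is a description of the letters and shows no binding.

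Igfbp2 encodes another secreted binding protein for insulin-like growth factors (ENSMUSG00000039323.18, GRCm38 chr1:72824503-72852474, plus strand). It ran from 68.0 over a median of 150 to 389 scaled TPM in control mice and from 45.6 over 208 to 537 at the low dose. It ran from 34.6 over 138 to 247 at the middle dose and from 101 over 234 to 370 at the high dose. Replicates 4 to 9 of the middle dose ran from 34.6 to 138, and the other mice of that dose from 109 to 247. The control median was exceeded by 13 of 14 mice at the high dose. The mice at the low dose were spread the most, with a coefficient of variation of 64.8% against 29.0% at the high dose. Low-dose replicates 4, 9, 10 and 13 had the lowest Igfbp2 of their group, 45.6, 72.6, 84.7 and 93.1. They also had its lowest factors, 0.894, 0.896, 0.931 and 0.895, and the part of the libraries in this spread was not tested. Igfbp2 was lower at the middle than at the high dose, with a log2FC of -0.97 (SE 0.299, adjusted p = 0.0149), the only comparison in which one of the 9 genes was a DEG, where 6.73% of all genes were. Against control, its log2FC was 0.40 at the low dose (adjusted p = 0.631), -0.30 at the middle dose (adjusted p = 0.553) and 0.67 at the high dose (adjusted p = 0.265). The 95% confidence interval of the last ran from 0.09 to 1.26, and that difference passed in a fit of these groups alone (adjusted p = 0.035) and in the Wilcoxon test (adjusted p = 0.0408). Control replicates 8 and 9 held the lowest and the highest control value, 68.0 and 389, and with both removed the log2FC at the high dose was 0.70 (adjusted p = 0.274).

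Trib1 and Trib3 encode pseudokinases of the Tribbles family: Trib1 brings the factor C/EBP alpha to a ubiquitin ligase, and Trib3, a target of Atf4, binds Akt. Trib1 (ENSMUSG00000032501.9, GRCm38 chr15:59648350-59657099, plus strand) ran from 10.4 over a median of 25.7 to 37.1 in control mice and from 22.6 over 25.5 to 32.2 at the low dose. It ran from 16.1 over 23.2 to 32.6 at the middle dose and from 24.6 over 30.2 to 35.5 at the high dose. Replicates 4 to 9 of the middle dose ran from 16.1 to 21.9, and the other mice of that dose from 23.2 to 32.6. Of the 14 mice at the high dose, 12 were above the control median, while the control range enclosed that of all other groups. Trib1 was lower at the middle than at the high dose, with a log2FC of -0.32 (SE 0.111, adjusted p = 0.0334). This call was lost with no filter on low values (adjusted p = 0.0554) and in 8 of 54 fits with a single mouse removed. Against control, the log2FC was 0.06, -0.08 and 0.24 (adjusted p = 0.879, 0.678 and 0.301).

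Trib3 (ENSMUSG00000032715.9, GRCm38 chr2:152337422-152344032, minus strand) ran from 0.989 over a median of 1.98 to 6.18 in control mice and from 1.01 over 2.09 to 4.12 at the low dose. It ran from 0.995 over 1.99 to 5.32 at the middle dose and from 0.988 over 3.10 to 4.92 at the high dose. Of the 14 mice at the high dose, 13 were above the control median, and 7 of the 14 had 3 whole units. The log2FC against control was 0.08, 0.01 and 0.33, and none passed the test (adjusted p = 0.911, 0.987 and 0.385). The highest control value, 6.18, was that of replicate 9, and without control replicates 8 and 9 the log2FC was 0.23, 0.16 and 0.48 (adjusted p = 0.578, 0.595 and 0.128).

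Between the doses, 1 of the 9 genes (Akt2) was called for the low against the middle dose, where 21.4% of all genes tested were. For the low against the high dose, 0 of the 9 were called by limma or by the Wilcoxon test, against 4.61% of all genes, and 1 gene (Insr, log2FC 0.22, adjusted p = 0.064) had an unadjusted p under 0.05. For the middle against the high dose, 4 of the 9 were called, Insr higher and Akt2, Igfbp2 and Trib1 lower at the middle dose, where 20.0% of all genes were called. The mean in scaled TPM was lowest at the middle dose for 7 of the 9 genes, and it was highest there for Insr. The same count over all genes was not made, so the 7 are a description only. Of the 7, Irs2, Igfbp1 and Trib3 passed no comparison, and the log2FC of Trib3 at the middle dose against control was above 0 (0.0066). Without control replicates 8 and 9, that log2FC was 0.16 for Trib3 and 0.10 for Irs2.

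The variation of the 9 genes between mice of 1 group was compared through the deviations from the group mean over all 54 mice, for 36 pairs of genes, with permutation tests adjusted over the pairs. Irs2 and Igfbp2 varied together, with a Pearson's r of 0.485 (adjusted permutation p = 0.00324) and a Spearman's rho of 0.549 (adjusted permutation p = 0.00144). The r was 0.423 without the 2 mice farthest from the median of Irs2 and 0.521 without control replicates 8 and 9. Within the groups it was 0.357 in control mice and 0.810, 0.769 and 0.0138 at the low, middle and high dose. At the low dose, replicates 4, 9, 10 and 13, with the lowest factors and the lowest Igfbp2 of that group, each had 2 whole units of Irs2.

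Irs2 and Igfbp1 had an r of 0.513 (adjusted permutation p = 0.0054) and a rho of 0.329 (adjusted permutation p = 0.241). The r was 0.423 without the 2 farthest mice and 0.366 without control replicates 8 and 9. It was 0.717 in control mice, 0.0592 and -0.246 at the low and middle doses and 0.822 at the high dose. Replicates 1 to 4 of the high dose had the lowest Igfbp1 of that group, from 4.94 to 8.49, with 1 or 2 whole units of Irs2. The other mice of that dose had Igfbp1 from 17.65 to 60.6 and from 2 to 5 whole units of Irs2. Igfbp1 and Igfbp2 themselves had an r of -0.18. Akt2 and Trib3 varied in opposite directions, with an r of -0.406 (adjusted permutation p = 0.045), a rho of -0.325 (adjusted permutation p = 0.241), an r of -0.448 without the 2 farthest mice and an r of -0.298 without control replicates 8 and 9. Within groups, that r ran from -0.642 in control mice over -0.292 and -0.497 to -0.00853 at the high dose. The other 33 pairs did not pass the test on Pearson's r.

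**Figure D3:**
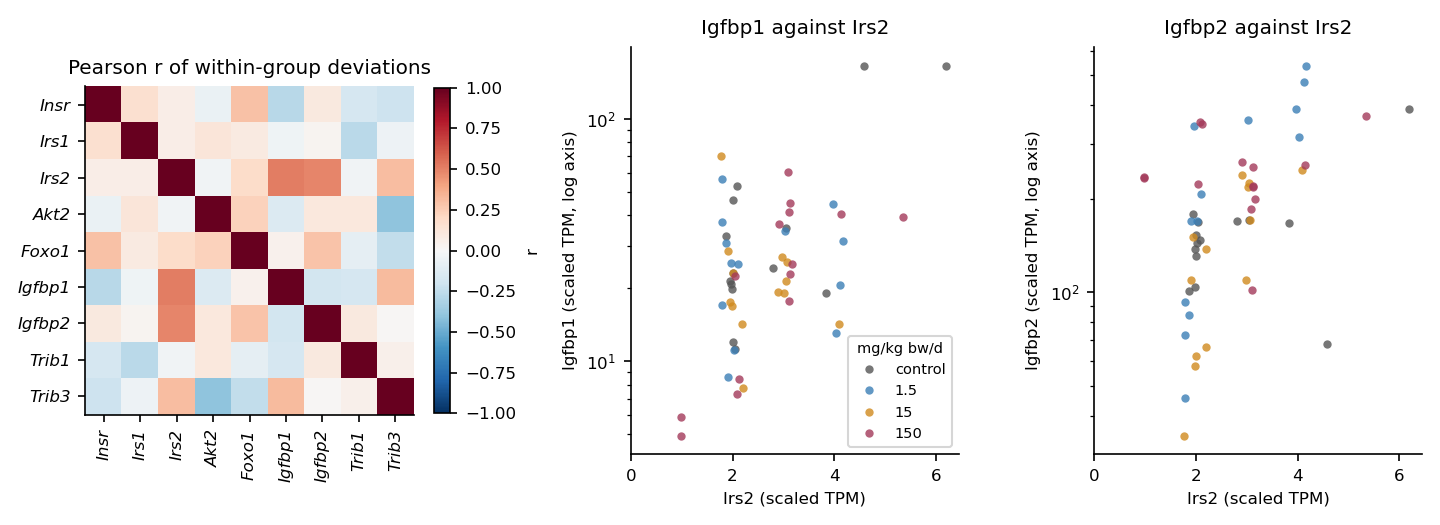
Left, Pearson's r of the within-group deviations of log2(value + 1) for each pair of the 9 genes over 54 mice, from blue (-1) to red (1). Middle and right, Igfbp1 and Igfbp2 (y axes, scaled TPM, log axes) against Irs2 (x axes, scaled TPM) with 1 point per mouse coloured by dose (mg/kg bw/d); the control mice at 165 and 166 stand at the top of the Igfbp1 panel, and Irs2 falls into columns because its values are few whole units.

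Over all genes with a mean of at least 5, those with the most similar course between mice differed for each of the 9, and these values are descriptions over 54 mice that share the same libraries and factors. Igfbp2 had the closest partners: C8b, a complement component (r = 0.865), Ahsg, the plasma protein fetuin A (r = 0.801), and the serpin Serpina3k (r = 0.797). Those of Igfbp1 included Tmem140 (r = 0.653) and Tagln2 (r = 0.643). Those of Irs2 included 4833411C07Rik (r = 0.64) and Kng2 (r = 0.571), and for Irs1 they were Wtap (r = 0.673), Tmem38b (r = 0.62) and A930005H10Rik (r = 0.615). Insr went with Grsf1, Eva1a and Gtf3c2 (r from 0.569 to 0.587), Akt2 with Mospd3, Adra1b and Tmx1 (r from 0.599 to 0.632), and Foxo1 with Ipmk, Sqor and Aspg (r from 0.565 to 0.593). Trib1 went with Chmp1b, Zfp91 and Sub1 (r from 0.701 to 0.716) and Trib3 with Rgs2, Tgfbi and Cd63 (r from 0.612 to 0.658). Genes with a mean under 5, Irs1, Irs2, Foxo1 and Trib3 among them, were left out of the search and could not appear as partners. None of the remaining members was among the closest partners of another.

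Other genes of the insulin cascade were followed in a list of 42, of which 35 could be tested. Against control, 0 of the 35 were called at the low and at the high dose, and at the middle dose 3 were higher and 5 lower, or 22.9% against 14.2% of all genes tested. At an unadjusted p under 0.05 limma gave 1 gene at the low dose (Gsk3b) and 6 at the high dose, and the Wilcoxon test with adjustment called 0 at both and 2 at the middle dose (Akt1 and Prkci). Without control replicates 8 and 9, 8 were called at the middle dose, of which 6 were among the 8 called with all mice and Rheb was not (adjusted p = 0.0675), and 1, Gsk3b, was called at the low dose (log2FC 0.62, adjusted p = 0.0352). Akt1, the sister kinase of Akt2, fell from 25.6 ± 1.98 in control mice to 20.6 ± 3.09 scaled TPM at the middle dose (log2FC -0.31, adjusted p = 0.00173). The lipid phosphatase gene Inppl1 (-0.48), the atypical protein kinase C gene Prkci (-0.39), the forkhead gene Foxo4 (-0.33) and the adaptor gene Shc1 (-0.25) were downregulated too. Among those higher were Rheb, an activator of mTOR (0.36), and Grb14, an adaptor that inhibits the insulin receptor (0.33). The median log2FC of the 35 was -0.058 at the middle dose, beside -0.001 over all genes.

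Genes that insulin is known to lower in liver were followed in a list of 14, of which G6pc was not found by symbol and is not covered. The other 13 had a median log2FC of 0.193 at the middle dose. There 4 were called, all higher (30.8% against 7.57% of all genes tested, counted in the same direction): Klf15 (0.66, adjusted p = 0.000302), Angptl4 (0.55), the gluconeogenic enzyme gene Fbp1 (0.46) and Sesn1 (0.40). At the high dose Angptl4, an inhibitor of lipoprotein lipase that is also a target of the fatty acid receptor Ppar alpha, rose with a log2FC of 1.47 (adjusted p = 9.84e-09), while Apoc3 (-0.30) and Cited2 (-0.40) fell, 3 of 13 beside 2.17% of all genes. The median at the high dose was -0.039. The Wilcoxon test with adjustment called Fbp1, Klf15 and Sesn1 but not Angptl4 at the middle dose, and Angptl4 and Apoc3 but not Cited2 at the high dose. Pck1, Mttp, Tat and Ppargc1a, also on the list, were not called at any dose against control, and at the low dose 0 of the 13 were called (1, Tat, with limma at an unadjusted p under 0.05, and 0 by the Wilcoxon test).

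Genes that insulin raises, mostly of fatty acid synthesis, gave 0 calls of 11 against control at each dose, by limma or by the Wilcoxon test, and 2 genes (Elovl6 and Thrsp, both at the middle dose) with an unadjusted limma p under 0.05. Of all genes, 1.20%, 14.2% and 2.17% were called at the 3 rising doses. At the high dose 10 of the 11 had a log2FC below 0 (median -0.155, beside -0.0081 over all genes), none past the test. Thrsp (1.21), Elovl6 (1.09) and Srebf1 (0.46) were higher at the middle than at the high dose, or 27.3% of the list beside 20.0% of all genes. Among 8 other genes of the insulin-like growth factor system, Igf1 (log2FC 0.39, adjusted p = 0.000867) and the growth hormone receptor gene Ghr (0.27, adjusted p = 0.0244) were upregulated at the middle dose, or 25.0% of the list beside 7.57% of all genes in that direction, and 0 were called at the low and high doses by limma or the Wilcoxon test. The call of Ghr was lost without control replicates 8 and 9 (log2FC 0.19, adjusted p = 0.116), and Igfbp7 was called (log2FC 0.49, adjusted p = 0.00628). The unadjusted limma p was under 0.05 for 2 of them at the low dose (Ghr and Igfbp3) and 1 at the high dose (Igfbp3).

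The branch of the stress factors Atf4 and Chop, to which Trib3 belongs, was followed through 10 genes, with Atf4 itself and the Chop gene Ddit3 among them. Ddit4 was called lower at the middle dose (log2FC -0.70, adjusted p = 0.007) and no other gene of the list was called at any dose against control. Ddit4 had a log2FC of -0.54 at the low and -0.40 at the high dose (adjusted p = 0.159 and 0.29). At an unadjusted p under 0.05 limma gave Ddit4 at the low dose and Ddit3 and Ddit4 at the middle dose. At the high dose it gave 4 genes, Cebpb, Ddit3, Ddit4 and Vldlr. The Wilcoxon test called 0 of the 10 genes at the middle dose and 1, Vldlr, at the high dose. The 1 limma call at the middle dose is 10.0% of the list beside 14.2% of all genes. Control replicates 8 and 9 held the highest control values of Ddit4, 14.5 and 16.8 beside 6.84 to 13.9 in the other 12, and without them its log2FC was -0.61 (adjusted p = 0.0275). The medians of these 10 were -0.141, -0.251 and -0.146 at the 3 rising doses. Among 6 genes linked to the Tribbles genes or proteins, Ppara was upregulated at the high dose (log2FC 0.58, adjusted p = 0.00187, where 2.17% of all genes were called). Cebpa and Cop1 were not called against control.

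**Figure D4:**
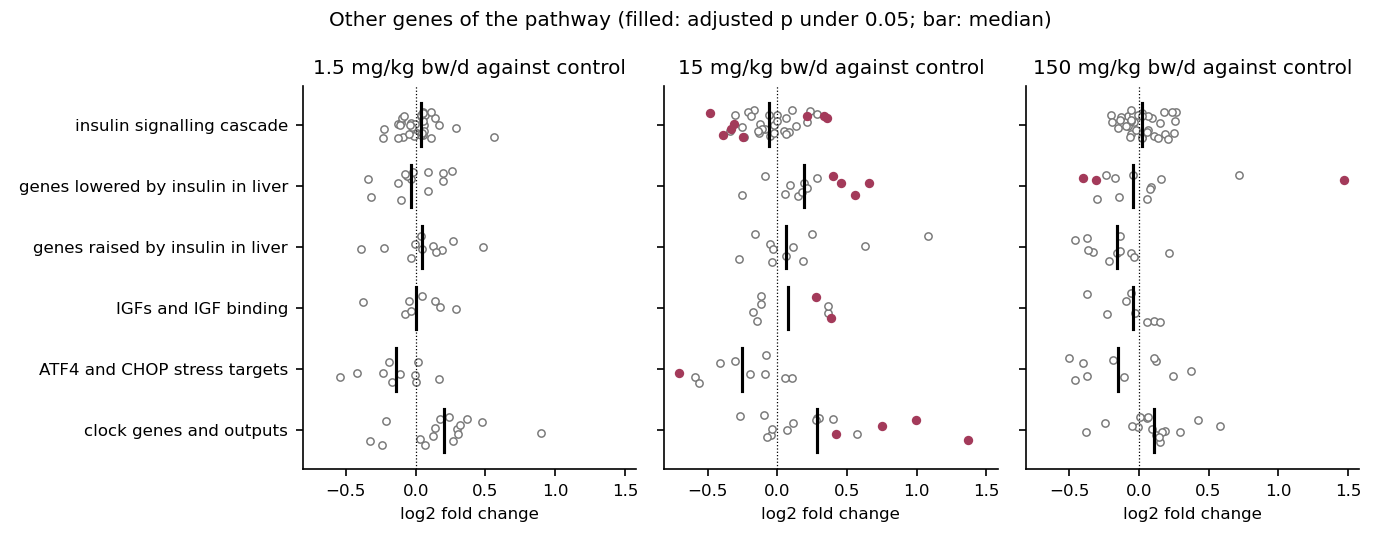
Log2 fold change against control (x axis) of the genes tested in 6 lists (y axis) at each DINP dose, 1 point per gene; filled points have an adjusted p under 0.05 and the black bar is the median of the list. Filled points are most frequent at the middle dose, and the point at 1.47 in the list of genes lowered by insulin at the high dose is Angptl4.

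Genes outside the pathway were also called at the middle dose, at which Insr, Irs1 and Akt2 were called. Of 16 clock genes and outputs tested, 4 were called and all were higher (25.0% against 7.57% of all genes in that direction), Usp2 (1.37), Dbp (1.00), Per3 (0.75) and Nr1d2 (0.42), with a median log2FC of 0.282. Without control replicates 8 and 9, 3 of these calls remained and that of Dbp was lost (log2FC 0.73, adjusted p = 0.0679). The Wilcoxon test with adjustment called 2 of the 4, Nr1d2 and Per3, and not Usp2 or Dbp. The endothelial gene Pecam1 was lower (-0.52, adjusted p = 0.000867), the other 4 endothelial markers were not called, and the sum of the 5 reached down to 67.5 with a median of 80.4 in control mice and down to 53.2 with a median of 73.5 at the middle dose. The hepatocyte marker Ttr was higher (0.42), a call lost without control replicates 8 and 9 (adjusted p = 0.0775), and the sum of 6 hepatocyte markers had medians of 37800 and 40200. The parts of the clock and of the cell types in the results at the middle dose were not tested, and in whole liver fewer cells of a type and less RNA per cell cannot be told apart. No marker of bile duct, stellate, Kupffer, lymphoid or red blood cells was called against control at any dose. At the high dose the hepatocyte marker Trf was lower (-0.19) and the adipocyte marker Cfd was higher (log2FC 2.07, adjusted p = 0.00335). Of the 4 adipocyte genes only Cfd was high enough to be tested, Lep and Plin1 were at 0 in every mouse of that group, and the sum of the list ran from 5.10 to 52.7 there and from 0.764 to 11.2 in control mice.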

How the data were processed

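Livers of 54 mice had been sequenced as 3′ mRNA libraries (QuantSeq), and per the labels STAR, RSEM and Salmon were used on GRCm38. The deposited values are a normalized signal: read here as TPM rounded to whole numbers and multiplied by a size factor per mouse, which is inferred from the values (100% of values lay within 0.02 of a whole multiple), with whole numbers summing to between 948342 and 980641 per mouse. They are not read counts, the depth is unknown and no interval from reads was possible. Groups followed the labels. The members, lists and alternatives were chosen with earlier results of these data known.

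From these values log2(value + 1) was tested with limma 3.58.1 in R 4.3.3 (trend, 4 groups in 1 fit, 11431 of 20162 genes with a mean of at least 1, Benjamini-Hochberg over all of them), because the values are labelled TPM. The fit was tested on simulated data with 200 changed genes. Correlations used 100000 permutations within groups (Python 3.11.15). Mice were housed singly, shared litters are not given in the sources used here, and p-values measure the spread between these mice.

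Replicate numbers do not pair mice: over 79 pairs of mice with the same number the deviations from the group means correlated by -0.0025 on average (from -0.359 to 0.243), with 12.7% above 0.1. Named were the 9 genes, list genes called (at most 6 per list by lowest adjusted p against control, beside Rheb, Foxo4 and genes not called, which were named after their values were seen), and the 3 closest genes to each member; a few genes that this rule names are not reported here. Alternatives were other pseudocounts, filters, quantile normalization, fits of 2 groups alone, a replicate block, the Wilcoxon rank-sum test, each mouse left out in turn, and, added after seeing the data, control replicates 8 and 9 left out together, mice first noticed for their high Igfbp1 that also have the lowest factors. Gene positions are from GENCODE M21.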

Additional observations from a re-analysis of the deposited data

Results flagged for a closer look

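For 4 genes the level differed between DINP doses, by the direct test of one dose against another with limma. Of these, Insr and Akt2 were also called against control, at the middle dose. Igfbp2 and Trib1 were not called against control at any dose in the main fit. Insr was higher at the middle than at the high dose by a log2FC of 0.28 (adjusted p = 0.0035), and 12 of 13 mice at the middle dose were above the median at the high dose. Akt2 was higher at the low than at the middle dose by 0.25 (adjusted p = 0.0299, lost in the Wilcoxon test, in a fit of these groups alone and in 5 of 54 fits with 1 mouse removed) and lower at the middle than at the high dose, with a log2FC of -0.30 (adjusted p = 0.00884). Igfbp2 had a log2FC of -0.97 for the middle against the high dose (adjusted p = 0.0149), and 11 of 13 mice at the middle dose were below the median at the high dose. Trib1 had a log2FC of -0.32 in the same comparison (adjusted p = 0.0334), again with 11 of 13 mice below that median, a call lost in 8 of 54 fits with 1 mouse removed. For scale, 20.0% of all genes tested passed for the middle against the high dose and 21.4% for the low against the middle dose. At the middle dose, the lower values of Igfbp2 and Trib1 came mostly from replicates 4 to 9. Their Igfbp2 ran from 34.6 to 138 and their Trib1 from 16.1 to 21.9. The other mice of that dose had Igfbp2 from 109 to 247 and Trib1 from 23.2 to 32.6. This split was noted after the values were seen. The cause of the differences was not tested.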

How the results depend on the processing

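For all 9 genes and 6 comparisons, 394 of 408 log2FC values under other pseudocounts, filters, scaling, samples in the fit or tests kept their direction and their side of the threshold, as did 2839 of 2916 with 1 mouse left out. These totals are high in part by construction. The Wilcoxon setting, the fits of 2 groups alone and the filters leave a log2FC unchanged, as does leaving out a mouse of a group outside the comparison. Most of the values were also not calls in the main fit, so the changes in calls are given separately below. At the middle dose against control, the 3 calls became 1 (Irs1) in a fit of these groups alone and 0 with the Wilcoxon test. At the high dose against control, both of these gave 1 call (Igfbp2) in place of 0. For the low against the middle dose, 1 call became 2 with a pseudocount of 0.1 (Irs1 and Akt2) and 0 with these groups alone or the Wilcoxon test, and ran from 0 to 2 with 1 mouse left out: the call of Akt2 was lost without replicates 6 or 11 at the low dose or replicates 5, 7 or 11 at the middle dose. For the low against the high dose, leaving out 1 mouse gave from 0 to 1 call (Insr, without replicate 3 at the low dose), and for the middle against the high dose from 3 to 4. The causes were not tested.

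Values near 0 changed sign. Trib3 at the middle dose against control was -0.0050 with a pseudocount of 5 and ran from -0.079 to 0.10 with 1 mouse left out. Irs1 for the low against the high dose was -6.9e-05 after quantile normalization and ran from -0.0083 to 0.056. Leaving out 1 mouse gave from -0.066 to 0.057, -0.083 to 0.040 and -0.038 to 0.10 for Irs2 at the 3 rising doses, and -0.028 to 0.063, -0.11 to 0.018 and -0.13 to 0.00039 for Irs2 in the comparisons of the low with the middle, the low with the high and the middle with the high dose. It gave -0.058 to 0.011 and -0.012 to 0.053 for Akt2 at the low and high doses, -0.027 to 0.11 for Trib1 at the low dose, -0.00081 to 0.079 for Foxo1 for the low against the middle dose and -0.18 to 0.082 for Igfbp1 for the middle against the high dose. Without control replicates 8 and 9 together, Irs2 turned to 0.12 at the low and 0.10 at the middle dose, Igfbp1 to 0.0029 at the low dose, Foxo1 to -0.0077 at the middle dose and Akt2 to -0.044 at the high dose.

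With a replicate block, 4 calls for the middle against the high dose became 3, as Trib1 was lost (log2FC -0.29, adjusted p = 0.0615), and no other call changed, though the numbers do not pair mice. Of the 36 pairs of genes, 2 passed with a pseudocount of 0.1 and 3 with a pseudocount of 5. The rounding of TPM limits Insr, Irs1, Irs2, Foxo1 and Trib3 to few distinct values.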
